A study of Saccharomyces cerevisiae BY4741 with 6 samples.

Results

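The small heat shock and protein-sorting chaperone genes of the budding yeast Saccharomyces cerevisiae were taken as 7 of the 5631 rows of the deposited count table, by their identifiers. They are HSP26 (YBR072W), HSP42 (YDR171W), HSP104 (YLL026W), BTN2 (YGR142W), CUR1 (YPR158W), HSP31 (YDR533C) and HSP12 (YFL014W), and all 7 passed the filter on low counts. The study compared poly(A) RNA of a pex3 deletion strain, pex3(YDR329c)::kanMX4, with that of the BY4741 wild type, with 3 cultures of each. Both strains are MATa and both carry ura3[delta]0, met15[delta]0, leu2[delta]0 and his3[delta]1, so these auxotrophies are shared by the controls. Pex3 is a membrane protein without which functional peroxisomes do not form, and the comparison asks whether its loss alters the transcriptome. The cultures were pre-grown on glucose, moved to acetate mineral medium in shake flasks, diluted there once more, and chilled on wet ice at harvest. Each genotype is represented by a single collection strain, so the spread between cultures does not include the spread between independent deletion clones.

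Chaperones of this group act when proteins lose their fold. The small heat shock proteins Hsp26 and Hsp42 bind unfolding proteins and hold them in assemblies, Btn2 and Cur1 steer misfolded proteins to deposit sites, and Hsp104 is a ring-shaped ATPase that pulls proteins out of aggregates together with Hsp70. Hsp31 belongs to the DJ-1 family and Hsp12 is a small unstructured protein that associates with membranes. Their genes are read by 2 stress pathways of yeast: the heat shock factor Hsf1 binds the heat shock element (HSE), made of alternating GAA and TTC units, and the factors Msn2 and Msn4 bind the stress response element (STRE), AGGGG.

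The stretches of promoter that hold these letters are shown because they differ between the 7 genes. The window from 500 to 101 bases upstream of the start codon was read from the RefSeq R64 genome, the build listed in the submitters' processing notes. It was searched on both strands for 3 adjoining HSE units (GAANNTTCNNGAA or TTCNNGAANNTTC), for 2 units (GAANNTTC or TTCNNGAA) and for the STRE (AGGGG or CCCCT). Each stretch runs 5′ to 3′ along the gene's strand with the motif letters in capitals.
HSP26, chrII:381541-381718, plus strand: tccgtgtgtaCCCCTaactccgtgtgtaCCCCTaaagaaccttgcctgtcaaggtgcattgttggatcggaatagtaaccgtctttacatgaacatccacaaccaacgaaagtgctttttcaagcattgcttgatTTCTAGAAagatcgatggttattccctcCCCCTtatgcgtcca
HSP42, chrIV:806368-806453, plus strand: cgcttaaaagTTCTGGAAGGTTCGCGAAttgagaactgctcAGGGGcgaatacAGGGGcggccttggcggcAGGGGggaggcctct
HSP104, chrXII:88311-88465, plus strand: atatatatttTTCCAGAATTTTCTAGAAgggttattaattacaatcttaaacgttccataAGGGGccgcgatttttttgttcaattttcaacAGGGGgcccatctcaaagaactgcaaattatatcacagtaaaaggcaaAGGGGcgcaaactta
BTN2, chrVII:772100-772137, plus strand: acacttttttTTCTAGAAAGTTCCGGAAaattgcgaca
CUR1, chrXVI:843064-843091, plus strand: agaaaaaaggGAACTTTCctactcaaaa
HSP31, chrIV:1502347-1502392, minus strand: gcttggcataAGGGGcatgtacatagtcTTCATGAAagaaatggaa
HSP12, chrVI:106811-107080, plus strand: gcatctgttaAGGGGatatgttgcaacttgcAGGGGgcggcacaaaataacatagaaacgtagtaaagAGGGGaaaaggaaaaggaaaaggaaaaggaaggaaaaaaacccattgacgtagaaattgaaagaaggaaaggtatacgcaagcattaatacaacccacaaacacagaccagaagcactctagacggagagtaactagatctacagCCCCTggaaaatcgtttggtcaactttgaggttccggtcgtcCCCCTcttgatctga

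The 3-unit HSE was found upstream of HSP42, HSP104 and BTN2, each time in 2 overlapping registers that together make a longer run of units. It occurs in 82 of 6000 promoters of the same length, or 1.37%, and 2 registers occur in 0.283%. Pairs of units alone stand upstream of HSP26, CUR1 and HSP31, but such a pair is present in 30.1% of all promoters. The STRE is present 5 times upstream of HSP12, 3 times upstream of HSP26, HSP42 and HSP104, and 1 time upstream of HSP31. At least 3 copies occur in 1.42% of promoters and at least 5 in 0.15%. No STRE letters lie in the windows of BTN2 and CUR1, and no HSE letters in that of HSP12. These matches describe the letters in the window and not binding.

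**Figure D1:**
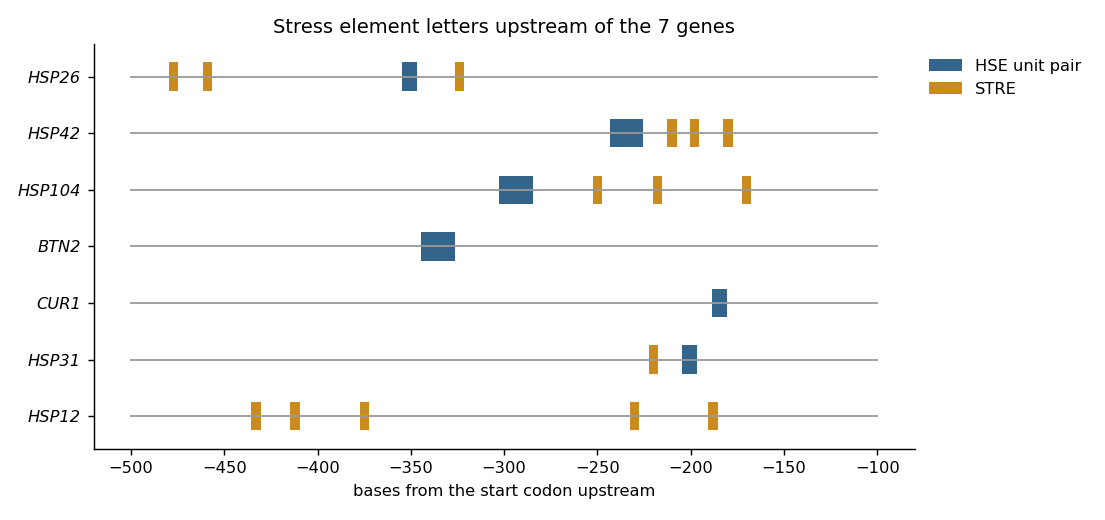
Position of HSE unit pairs and STRE letters, in bases from the start codon, in the window searched upstream of each of the 7 genes; adjoining pairs merge into longer blocks. HSP26, HSP42, HSP104 and HSP31 carry both kinds of element, BTN2 and CUR1 only HSE units, and HSP12 only 5 STREs.

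The genes lie on 6 chromosomes and none overlaps another annotated gene in R64. HSP26 is at chrII:382030-382674, HSP42 at chrIV:806621-807748 and HSP104 at chrXII:88623-91349, all on the plus strand. BTN2 is at chrVII:772454-773686, CUR1 at chrXVI:843262-844020 and HSP12 at chrVI:107256-107585 on the plus strand, and HSP31 is at chrIV:1501447-1502160 on the minus strand. Their coding lengths run from 330 bases in HSP12 to 2727 in HSP104, which encode 109 and 908 residues. HSP31 has a group of similar copies, HSP32, HSP33 and SNO4, which match it at 69.9% to 70.1% of bases over 92.7% of its length. HSP104 shares 68.2% identity with the mitochondrial disaggregase gene HSP78 over 12.1% of its length. Among annotated genes a search for similar sequence returned no other match for the 7, so CUR1 and BTN2, which are related as proteins, do not match at this level.

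The 6 libraries held between 6782522 and 9410398 counts. The deleted gene was not analysed here, so strains are named by their labels alone. The receptor gene STE2, which marks MATa cells, averaged 246 ± 14.3 CPM in pex3 and 268 ± 11.4 CPM in WT, and STE3, which marks the opposite mating type, 27.9 ± 1.72 and 29.6 ± 3.36 CPM (SD, n = 3 each). The other MATa markers in the table were BAR1, a secreted protease gene, at 96.6 ± 10.9 CPM in pex3 and 116 ± 3.23 CPM in WT with no overlap (log2 fold change -0.27, SE 0.09, edgeR adjusted p 0.491), and the pheromone exporter gene STE6, at 276 ± 2.48 and 279.9 ± 35.4 CPM. The alpha-factor gene MF(ALPHA)1, a marker of the opposite type, averaged 8.94 ± 3.13 CPM in pex3 and 12.5 ± 0.647 CPM in WT (log2 fold change -0.49, SE 0.26), and the remaining pheromone genes were not analysed here. pex3 replicate 1 and WT replicate 1 stood apart from the other libraries of their strains. The chi-square statistic of 2 libraries' counts over genes, per degree of freedom, was 15.6 and 26.0 for pex3 replicate 1 against pex3 replicates 2 and 3, and 20.2 and 33.7 for WT replicate 1 against WT replicates 2 and 3. Replicates 2 and 3 differed from each other by 6.79 in pex3 and 6.85 in WT, and by 10.8 to 13.5 between the strains. The largest value of any pair, 43.5, was that of pex3 replicate 1 against WT replicate 1. A fit without both replicates 1, chosen after seeing the data, is given with the results. Across genes, Spearman's rho of length with the deviation of a library from the average log2 CPM was -0.143, -0.076 and 0.152 in pex3 replicates 1, 2 and 3, against 0.324, -0.135 and -0.381 in WT replicates 1, 2 and 3. The cause of this relation was not tested, and a length-corrected fit was run beside the main one.

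The 7 genes were grouped by function with earlier results of this comparison known, in which HSP26 and BTN2 stood out among the lower chaperone genes. The strain differences below are thus a description of chosen genes, and nothing is inferred from their number. Values are counts scaled by library size and TMM factors (CPM). Fold changes come from an edgeR quasi-likelihood fit over all 5628 rows that passed the filter, with 95% intervals that reflect the spread between cultures.

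With all 6 libraries, a split ran through the group. HSP26, HSP42, HSP104, BTN2 and CUR1 averaged between 0.657 and 0.753 times their WT level in the pex3 strain, whereas HSP31 and HSP12 averaged 1.02 and 1.05 times. The first 5 are both small heat shock protein genes, the disaggregase gene and the pair of sorting-factor genes. None of the 7 was called at an adjusted p under 0.05 over all rows, a threshold that 0.178% of rows passed. Without both replicates 1, HSP26 was called lower, as were 0.355% of rows, and the other 6 genes were not. The log2 fold changes were then -0.42 for HSP26, -0.29 for HSP42, -0.17 for HSP104, -0.44 for BTN2, -0.35 for CUR1, 0.06 for HSP31 and -0.18 for HSP12. HSP12 was thus as low as HSP104 without both replicates 1, and the split did not hold between those genes. Of the 7 genes, 3 had an unadjusted p under 0.05 in that fit, all lower, against 5 with all libraries. Of all 5628 rows, 514 had such a p in that fit and 511 with all libraries, in either direction. The median log2 fold change of the 7 was -0.289, against -0.516.

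HSP26, whose product holds unfolding proteins in large assemblies, measured 1091, 1281 and 1317 CPM in pex3 replicates 1, 2 and 3, against 1830, 1667 and 1797 CPM in WT replicates 1, 2 and 3. All 3 deletion cultures lay well below all 3 wild-type cultures, and the gap between the strains was wider than the range within either. The means were 1229 ± 122 CPM in pex3 and 1765 ± 86.2 CPM in WT (SD, n = 3 each), which gives -0.52 as log2 fold change (SE 0.09, 95% interval -0.74 to -0.31). The edgeR adjusted p was 0.119. HSP26 ranked 24 by p-value among the 5628 rows, so it was the nearest of the 7 to a call. DESeq2 did call it, with a log2 fold change of -0.53 and an adjusted p of 0.000161, and so did edgeR without both replicates 1, with an adjusted p of 0.0261. Without WT replicate 1 alone the fold change was -0.49, and without pex3 replicate 1 alone it was -0.44. Over all 17 alternatives its adjusted p ran from 0.000161 to 0.488.

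HSP42, the other small heat shock protein gene, had 147, 197 and 243 CPM in pex3 replicates 1, 2 and 3, against 357, 294 and 242 CPM in WT replicates 1, 2 and 3. The highest deletion culture and the lowest wild-type culture were level, so the strains met at that point. Its means were 196 ± 48.2 CPM in pex3 and 298 ± 57.7 CPM in WT (SD, n = 3 each), which gives -0.61 as log2 fold change (SE 0.20, 95% interval -1.07 to -0.15, edgeR adjusted p 0.487). This was the largest difference of the 7 genes. HSP42 also had the largest spread within the strains, with a pooled SD of log2 CPM of 0.325. Its fold change was -0.44 without pex3 replicate 1, -0.45 without WT replicate 1 and -0.79 without pex3 replicate 3.

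HSP104, the disaggregase gene, showed 799, 962 and 981 CPM in pex3 replicates 1, 2 and 3, against 1454, 1156 and 1031 CPM in WT replicates 1, 2 and 3. The strains did not overlap, but WT replicate 3 was close to the 2 higher deletion cultures and WT replicate 1 stood apart at the top. Averages were 914 ± 100.3 CPM in pex3 and 1214 ± 217 CPM in WT (SD, n = 3 each), which gives -0.41 as log2 fold change (SE 0.14, 95% interval -0.73 to -0.09, edgeR adjusted p 0.491). The fold change was -0.26 without WT replicate 1 and -0.32 without pex3 replicate 1.

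BTN2 was measured at 31.3, 33.9 and 37.2 CPM in pex3 replicates 1, 2 and 3, against 49.8, 58.3 and 38.8 CPM in WT replicates 1, 2 and 3. The deletion cultures were tightly grouped, and WT replicate 3 lay just above them. The log2 fold change was -0.52 (SE 0.15, 95% interval -0.87 to -0.16, edgeR adjusted p 0.455). CUR1, the paralog of BTN2, gave 7.68, 10.8 and 11.4 CPM in pex3 replicates 1, 2 and 3, against 16.7, 16.5 and 12.0 CPM in WT replicates 1, 2 and 3. Here too WT replicate 3 was the lowest wild-type culture and lay close to the deletion strain. The log2 fold change of CUR1 was -0.59 (SE 0.21, 95% interval -1.08 to -0.10, edgeR adjusted p 0.497). CUR1 is the rarest of the 7, with 62 counts in pex3 replicate 1, for which the exact 95% Poisson interval runs from 47.5 to 79.5 counts and covers counting error only. BTN2 was at -0.50 without WT replicate 1 and -0.46 without pex3 replicate 1, and CUR1 at -0.50 and -0.44.

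HSP31 stood at 94.8, 91.9 and 103.1 CPM in pex3 replicates 1, 2 and 3, against 98.6, 87.0 and 98.4 CPM in WT replicates 1, 2 and 3. The cultures of the strains were interleaved. Its log2 fold change of 0.03 had a 95% interval from -0.16 to 0.22 (SE 0.08, edgeR adjusted p 0.928), so differences of the size seen for HSP26 lie outside that interval. It was 0.06 without WT replicate 1 and 0.04 without pex3 replicate 1.

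HSP12, a standard reporter of the general stress response in yeast, had 1117, 873 and 760.0 CPM in pex3 replicates 1, 2 and 3, against 772, 880 and 960.0 CPM in WT replicates 1, 2 and 3. Both extremes came from the deletion strain, whose cultures enclosed those of the wild type. The log2 fold change was 0.07 (SE 0.15, 95% interval -0.27 to 0.42, edgeR adjusted p 0.893), and its sign was not stable, since it was -0.09 without pex3 replicate 1, -0.01 without WT replicate 1 and -0.18 without both. HSP12 is the shortest of the 7 genes, and its order within each strain moved with the length dependence of the libraries given above. After the length correction its differences from the WT mean on the log2 scale were 0.21, -0.05 and 0.04 in pex3 replicates 1, 2 and 3, against 0.19, -0.10 and -0.09 in WT replicates 1, 2 and 3. Before the correction they were 0.36, 0.01 and -0.19 in pex3 and -0.17, 0.02 and 0.15 in WT.

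**Figure D2:**
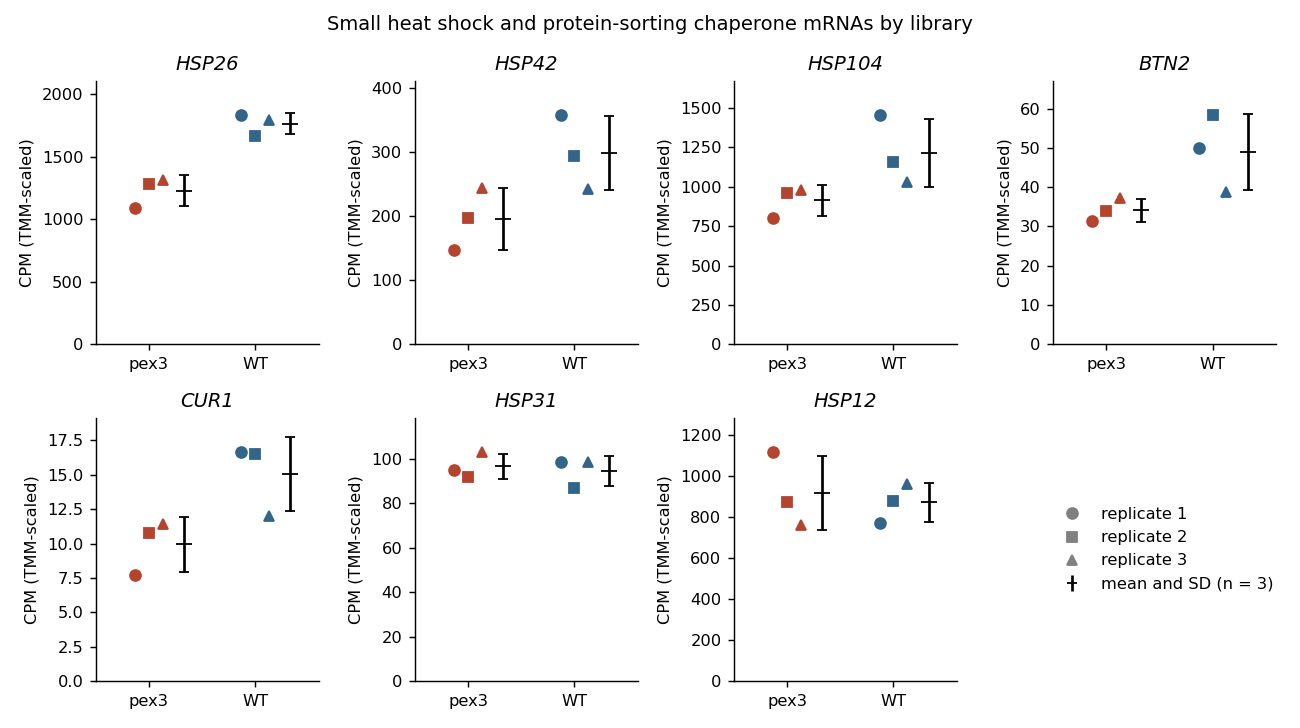
TMM-scaled CPM of each gene in the 3 pex3 and 3 WT libraries, with the marker shape giving the replicate number and the bar the mean and SD; each panel has its own axis from 0. The strains are apart for HSP26, touch for HSP42, and interleave for HSP31 and HSP12.

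Counted over the group, 4 of the 7 genes (HSP26, HSP104, BTN2 and CUR1) had all deletion cultures below all wild-type cultures, where 7.73% of all rows did so. HSP42 joined them with upper quartile factors, with library totals only and with the length correction, which made 5. It also did so without pex3 replicate 3 or without WT replicate 3. Without both replicates 1 the number was 5 as well, but with HSP12 in place of HSP42. HSP12 then had 873 and 760.0 CPM in pex3 against 880 and 960.0 CPM in WT, while HSP42 overlapped. The share of all rows was not counted under any of these settings. An unadjusted p under 0.05 in the lower direction was reached by 5 of the 7, and by 5.15% of all rows. With pex3 replicate 1 left out, the number was 3 of the 7, where 317 of 5629 rows had such a p in either direction. DESeq2 called 1 of the 7 lower, HSP26, and 0.569% of all rows lower. Because the genes were chosen with this comparison known, these shares are given for scale only. The median log2 fold change of the 7 was -0.516, and that of all tested rows was 0.006.

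**Figure D3:**
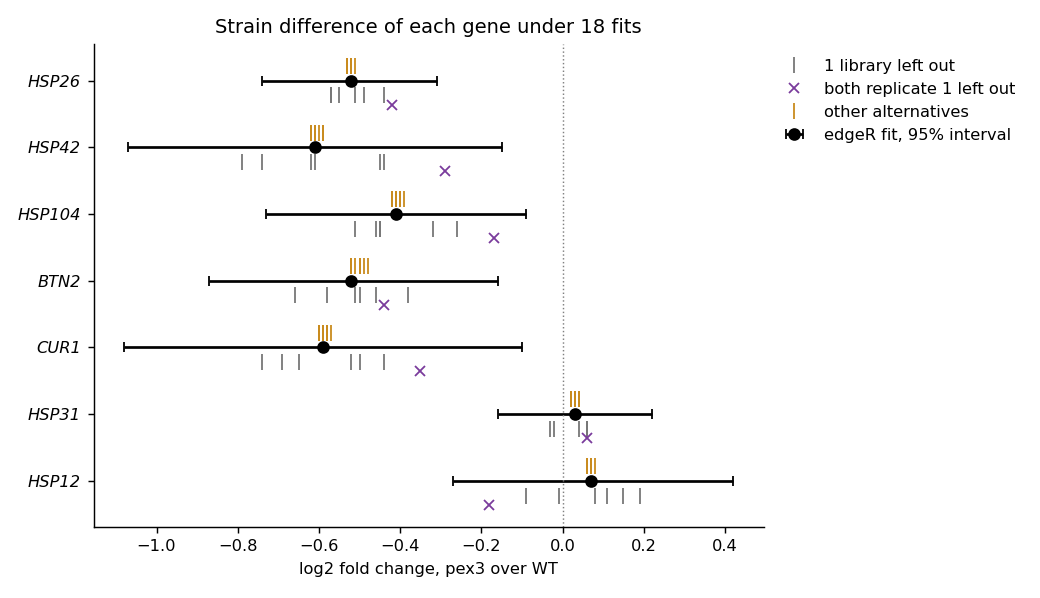
Log2 fold change of pex3 over WT for each gene, with the edgeR estimate and its 95% interval as a black point and bar, the 6 fits that leave out 1 library as grey ticks, the fit without both replicates 1 as a purple cross, and the remaining 10 alternatives as ochre ticks. The estimates for HSP26, HSP42, HSP104, BTN2 and CUR1 stay below 0 in every fit drawn, and those of HSP31 and HSP12 lie on both sides of it.

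**Figure D4:**
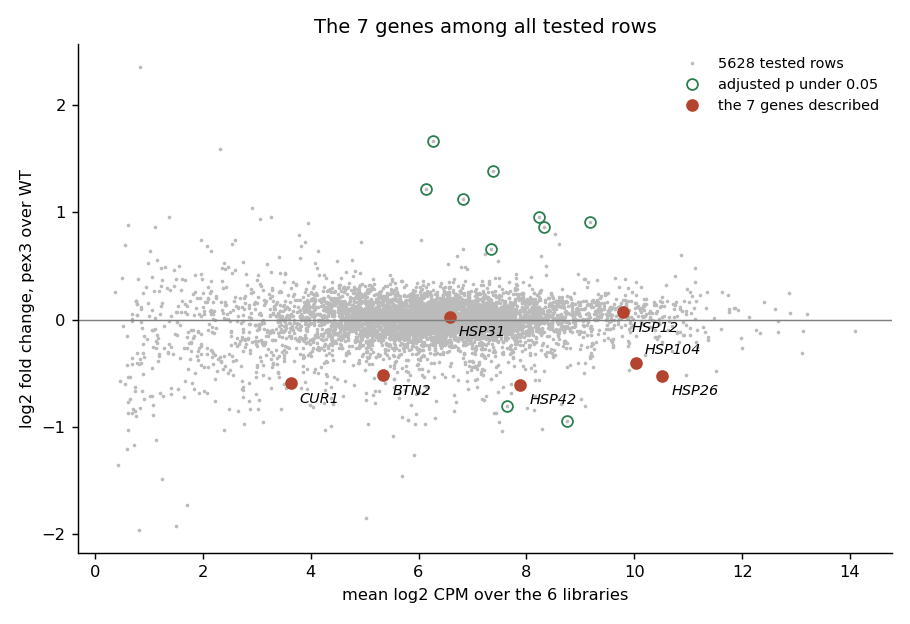
Log2 fold change of pex3 over WT against the mean log2 CPM of the 5628 tested rows, with the 7 genes filled in red and the 10 rows at an adjusted p under 0.05 circled. HSP26, HSP104 and HSP12 sit among the abundant mRNAs and CUR1 among the rare ones, and none of the 7 is circled.

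Per kilobase of coding length, which allows genes to be compared, the group spanned a wide range of levels. In the pex3 strain HSP12 averaged 2777 ± 552 CPM per kb, HSP26 1906 ± 189, HSP104 335 ± 36.8, HSP42 174 ± 42.7, HSP31 135 ± 8.11, BTN2 27.7 ± 2.37 and CUR1 13.1 ± 2.64 (SD, n = 3). In WT the means were 2638 ± 286 for HSP12, 2736 ± 134 for HSP26, 445 ± 79.6 for HSP104, 264 ± 51.1 for HSP42, 133 ± 9.33 for HSP31, 39.7 ± 7.91 for BTN2 and 19.8 ± 3.51 for CUR1 (SD, n = 3). In both strains, therefore, the same pair was at the top and the same sorting-factor pair at the bottom. The neighbours HSP42 and HSP31 overlapped in the pex3 libraries but not in those of WT, and HSP12 and HSP26 overlapped in WT but not in pex3.

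The ratio of 2 genes within a library does not depend on how libraries are scaled. Per kilobase, HSP26 stood at 0.500, 0.751 and 0.886 times HSP12 in pex3 replicates 1, 2 and 3, against 1.21, 0.970 and 0.958 times in WT replicates 1, 2 and 3. All 3 deletion cultures were below all 3 wild-type cultures. For HSP42 and HSP104 set against HSP12 the strains overlapped, but these ratios keep the length dependence of the libraries. After the length correction, the log2 differences from the WT mean were -0.96, -0.56 and -0.29 for HSP42 in pex3, against 0.25, 0.01 and -0.26 in WT. For HSP104 they were -0.57, -0.32 and -0.3 in pex3, against 0.21, -0.04 and -0.18 in WT. Set against the corrected HSP12 values given above, the strains did not overlap for either gene. The uncorrected ratios follow. HSP42 stood at 0.0385, 0.0660 and 0.0937 times HSP12 in pex3 replicates 1, 2 and 3, against 0.135, 0.0979 and 0.0738 times in WT replicates 1, 2 and 3, and HSP104 at 0.0866, 0.133 and 0.156 times HSP12 in pex3, against 0.228, 0.159 and 0.130 times in WT. Ratios between lower genes overlapped as well. HSP26 over HSP42 gave 12.97, 11.39 and 9.46 in pex3 replicates 1, 2 and 3, against 8.96, 9.90 and 12.97 in WT replicates 1, 2 and 3. BTN2 stood at 2.51, 1.94 and 2.00 times CUR1 in pex3 replicates 1, 2 and 3, against 1.84, 2.17 and 1.99 times in WT replicates 1, 2 and 3. HSP26 over HSP104 gave 5.77, 5.63 and 5.67 in pex3 replicates 1, 2 and 3, against 5.32, 6.10 and 7.36 in WT replicates 1, 2 and 3, and the wild-type cultures enclosed those of the deletion strain.

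Cultures of 1 strain also differed from each other in a shared way. pex3 replicate 1 was the lowest library of all 6 for HSP26, HSP42, HSP104, BTN2 and CUR1, with log2 differences from the WT mean of -0.69, -1.0, -0.59, -0.62 and -0.93. Within the wild type, replicate 3 was the lowest for HSP42, HSP104, BTN2 and CUR1, with -0.28, -0.22, -0.31 and -0.31 on that scale, but not for HSP26, where it was 0.03. The pooled within-strain SD of log2 CPM was 0.325 for HSP42, 0.285 for CUR1, 0.228 for HSP12, 0.225 for BTN2 and 0.213 for HSP104. It was 0.115 for HSP26 and 0.0948 for HSP31, against a median of 0.131 over all tested rows. HSP42 was thus more variable than 90.2% of rows and HSP31 than 29.5%. With the length correction the SD of HSP12 was 0.15 and that of HSP42 was 0.30.

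The libraries of the strains overlapped for each of 8 genes that regulate these pathways. HSF1 averaged 146 ± 18.7 CPM in pex3 and 145 ± 16.3 CPM in WT, MSN2 109.3 ± 5.87 and 107 ± 13.2 CPM, and MSN4 79.3 ± 5.82 and 80.4 ± 19.7 CPM (SD, n = 3 each). Their log2 fold changes were 0.01 (SE 0.12), 0.03 (SE 0.10) and -0.02 (SE 0.16). Those of the oxidative stress factors YAP1 and SKN7 were -0.06 (SE 0.08) and -0.02 (SE 0.08). The kinase genes RIM15 and YAK1 gave -0.14 (SE 0.11) and -0.31 (SE 0.21), and GIS1, which encodes a factor of the nutrient-starvation response, -0.37 (SE 0.18). Of these 8 genes 0 were called, 0 had an unadjusted p under 0.05 in edgeR (1, lower, without pex3 replicate 3 or without WT replicate 3), and 0 were called by DESeq2. mRNA levels do not report the activity of these factors, which is set largely after translation.

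Other genes of both stress pathways were taken from lists written from general knowledge with earlier results of these data known. Of 14 further Hsf1-dependent chaperone genes, 10 had a negative and 4 a positive fold change, with a median of -0.088 on the log2 scale. None was called by edgeR or DESeq2. An unadjusted p under 0.05, reached in the lower direction by 5.15% of all rows, was found for 2 of the 14, both lower. That number was 0 without WT replicate 2, 1 without pex3 replicate 1, without pex3 replicate 2 or without both replicates 1, and 3 without pex3 replicate 3 or WT replicate 3. With 1 library left out, the median ran from -0.122, without WT replicate 1, to -0.05, without WT replicate 2. It was -0.108 without both replicates 1. The largest differences were those of HSP78, the mitochondrial Hsp104 relative, at -0.41 (SE 0.19), the Hsp40 gene SIS1 at -0.34 (SE 0.11), the Hsp90 gene HSP82 at -0.26 (SE 0.13) and the nucleotide exchange factor gene FES1 at -0.17 (SE 0.07). The median of this list was nearer 0 than that of the 7 chaperone genes.

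Of 18 general stress genes read by Msn2 and Msn4, outside the 7, 17 had a negative and 1 a positive fold change, with a median of -0.382. None was called by edgeR or DESeq2. An unadjusted p under 0.05 was found for 9, all lower, beside 5.15% of all rows in that direction. All deletion cultures were below all wild-type cultures for 8, beside 7.73% of all rows. The largest were the aldehyde dehydrogenase gene ALD3 at -0.79 (SE 0.29), the trehalose phosphatase gene TPS2 at -0.71 (SE 0.28), the cell wall gene SPI1 at -0.49 (SE 0.27) and the catalase gene CTT1 at -0.49 (SE 0.24). WT replicate 1 stood apart here. ALD3 measured 44.2, 44.1 and 47.7 CPM in pex3 replicates 1, 2 and 3, against 120.7, 66.0 and 49.7 CPM in WT replicates 1, 2 and 3, and TPS2 showed the same excess in WT replicate 1, with 543 CPM there and 321 and 271 CPM in WT replicates 2 and 3. Without WT replicate 1 the median of the list was -0.235, while that of the 7 chaperone genes was -0.454 and the fold change of HSP26 was -0.49. The number at an unadjusted p under 0.05 was 3 without pex3 replicate 1, 4 without pex3 replicate 2 and 6 without WT replicate 1. It was also 6 without both replicates 1, where the median was -0.16, beside -0.108 for the Hsf1 list.

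**Figure D5:**
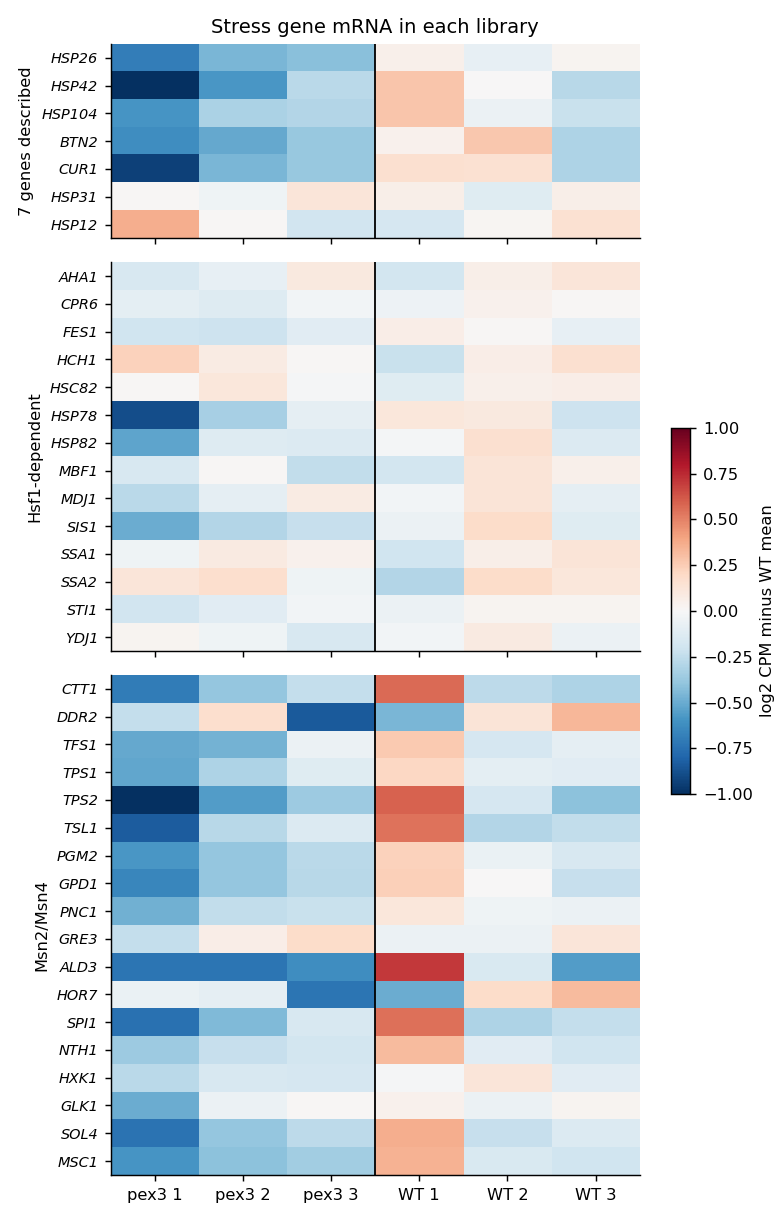
Log2 CPM of each gene in each library minus the mean of the WT libraries, from blue (lower) to red (higher), with colours saturating at 1 in either direction, for the 7 genes, the 14 further Hsf1-dependent genes and the 18 Msn2/Msn4 genes. pex3 replicate 1 is the bluest column for most rows of the top and bottom blocks, and WT replicate 1 is the reddest in the bottom block.

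Hsp104 works with Hsp70 and its helpers, and 12 partner genes were listed, among them the Hsp90 genes HSC82 and HSP82. These 12 genes, 7 of them also on the Hsf1 list, had a median log2 fold change of -0.17. edgeR called 0 of them and, beside 5.15% of all rows in the lower direction, 4 had an unadjusted p under 0.05, all lower. That number was 2 without WT replicate 2, where the median was -0.133, and 6 without WT replicate 3, where it was -0.23; the median was -0.11 without WT replicate 1. SSE2, an Hsp110 gene, was at -0.35 (SE 0.08) and was called by DESeq2, and the stress-inducible Hsp70 gene SSA4 was at -0.31 (SE 0.07). The most abundant Hsp70 gene, SSA1, was at 0.02 (SE 0.10).

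The copies of HSP31 are rare mRNAs. HSP32 had 33, 50 and 44 counts in pex3 replicates 1, 2 and 3, against 66, 55 and 78 in WT replicates 1, 2 and 3, with -0.72 as log2 fold change (SE 0.20) and 0.438 as edgeR adjusted p. HSP33 was at -0.58 (SE 0.19) and SNO4, with 7 to 33 counts per library, at 0.87 (SE 0.38). These 3 are close copies of one another, so the way reads were divided among them can set their separate values. HSP31 itself had 594 to 928 counts per library.

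When all genes were grouped by the letters in the same promoter window, a grouping set after the values were seen, 345 tested genes with at least 2 STREs and no 3-unit HSE had a median log2 fold change of -0.136, and 64 with a 3-unit HSE and under 2 STREs had a median of 0.013. The 5087 genes with no 3-unit HSE and under 2 STREs had a median of 0.012. The 8 genes with both, among them HSP42 and HSP104, had a median of -0.409, and the 6 of these outside the 7 chaperone genes had -0.291. Medians of these groups come from the main fit with all libraries. They were not computed with any library left out or under the other alternatives. HSP12, with 5 STREs and 0.07, stood above the median of the STRE group, and HSP26, in the same group, stood below it at -0.52. BTN2, with an HSE and no STRE, stood at -0.52, at the low end of the HSE group, which ran from -0.52 to 0.35. CUR1 and HSP31, in the group of 5087, were at -0.59 and 0.03.

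The genes whose pattern over the 6 libraries was most like each chaperone gene were found by the root mean square difference of centred log2 CPM, among 5351 rows with a mean count of at least 50. For HSP26 they were UIP4, SHH4 and SPG4, with differences of 0.0405, 0.052 and 0.0551, against a median of 0.305 over all rows. For HSP42 they were XBP1, YDL199C and PTK2 (0.0512, 0.0587 and 0.0623), and for HSP104 they were ARO9, the glycerol-3-phosphate dehydrogenase gene GPD1 and JID1 (0.0294, 0.0408 and 0.0416). BTN2 was nearest to UGX2, MCO32 and HEF3 (0.0592, 0.0618 and 0.0881) and CUR1 to PNS1, ATG29 and PTK2 (0.0743, 0.0846 and 0.0879). PTK2, a kinase gene, was near both HSP42 and CUR1, which were each other's nearest of the 7 genes at 0.105, as rank 14 in the order of HSP42 and rank 8 in that of CUR1. For the other members the nearest of the 7 was further down the order. It was HSP104 at rank 83 for HSP26, HSP26 at rank 301 for HSP104, CUR1 at rank 21 for BTN2, HSP12 at rank 4327 for HSP31 and HSP31 at rank 2767 for HSP12. HSP31 lay nearest to AIM9, PEX32 and RAM1 (0.0224, 0.0254 and 0.028), all with fold changes within 0.03 of 0, and HSP12 to YCL002C, ARF3 and GIM3 (0.0464, 0.0489 and 0.0515).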

How the data were processed

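The authors deposited whole-number read counts per gene for 6 poly(A), strand-specific libraries, with no normalization. fastp 0.20.0, STAR, RSEM 1.3.3 and build R64 are listed in the submitters' processing notes. RSEM estimates need not be whole, so the counts may have been rounded. Whether counting used the strand, and any filter, is not given in the sources used here; the smallest row total was 62. Columns were matched to samples by strain and number.

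Differences between strains come from edgeR 4.0.16 under R 4.3.3 (TMM, filterByExpr, quasi-likelihood test, strain alone, Benjamini-Hochberg over 5628 rows, threshold 0.05) after a check on simulated data. SE is the fold change divided by the root of F. Intervals are at 95%. Log2 CPM carried a prior count of 2. Alternatives were DESeq2 1.42.0, voom of limma 3.58.1, other factors and filters, the replicate number as a block, a loess length correction (span 0.3) leaving out each library and, chosen after seeing the data, leaving out replicate 1 of both strains. Similar genes were sought with BLAST+ 2.17.0. Symbols came from RefSeq, which matched 5522 rows.

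The members and lists were chosen with earlier results of these data known. The text names all 7 members, the up to 4 genes per list with the largest fold change and any called, all regulators, paralogs of HSP31, mating type markers, and the 3 rows nearest to each member. SSA1 was named after its values were seen.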

Additional observations from a re-analysis of the deposited data

How the results depend on the processing

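HSP26, HSP42, HSP104, BTN2 and CUR1 kept a negative fold change under all 17 alternatives. DESeq2 put HSP26 past the threshold at -0.53, so that 1 of the 7 genes and 1 of the Hsp104 partner genes were called lower, against 0 each in edgeR. Without both replicates 1, chosen after seeing the data, HSP26 (-0.42) was again the 1 gene of the 7 called, HSP12 was at -0.18, and the medians were -0.289 for the 7, -0.16 for the Msn2/Msn4 list and -0.121 for the partner genes; whole-table calls were then 54, against 10. Across the 6 fits that left out 1 library, HSP26 ran from -0.57 to -0.44, HSP42 from -0.79 to -0.44, HSP104 from -0.51 to -0.26, BTN2 from -0.66 to -0.38, CUR1 from -0.74 to -0.44, HSP31 from -0.03 to 0.06 and HSP12 from -0.09 to 0.19, the last 2 with a change of sign. The median of the partner genes ran from -0.23 to -0.11 and that of the Msn2/Msn4 list from -0.499 to -0.235. For the Hsf1 list the median ran from -0.122 to -0.05. Over the whole table, 511 rows had an unadjusted p under 0.05 in the main fit, in either direction. They numbered 317, 301 and 588 without pex3 replicates 1, 2 and 3, and 428, 332 and 799 without WT replicates 1, 2 and 3. The gene length correction took the within-strain SD of HSP12 to 0.15; this setting and library totals for the SD were chosen after seeing the data. With Pearson correlation in place of the root mean square difference, 1 of the 3 nearest genes was shared for HSP42, BTN2 and CUR1 and 0 for HSP104 and HSP12. The cause of these moves was not tested.

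The deposited column names of same-numbered libraries share a prefix between the strains, and whether those cultures were paired is not known here. Deviations of same-numbered libraries correlated at -0.157, 0.23 and -0.261. These values show no steady likeness, but they cannot tell whether the cultures were paired. With the replicate block HSP26 was at -0.53 (edgeR adjusted p 0.381) and 0 of the 7 were called. An unadjusted p under 0.05 was reached by 2 of the 7, against 5 without the block. It was reached by 1 of the Hsf1 list and 6 of the Msn2/Msn4 list, against 2 and 9. Of all 5628 rows, 401 had such a p in either direction, against 511. Whole-table calls fell to 1, against 10 without the block. With the block and the length correction together, 5 of the 7 had such a p, as did 518 of all rows. HSP26 was then at -0.52 (edgeR adjusted p 0.369), and 0 of the 7 were called. Depth limits CUR1 and the HSP31 copies most.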
